A study of Mus musculus with 109 samples.

Results

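The genes described here are Rprm and 9 genes of the p53 response (Cdkn1a, Mdm2, Ccng1, Trp53inp1, Eda2r, Phlda3, Zmat3, Sesn1 and Trp53), which are 10 of the 37315 genes counted in whole mouse retina. They were taken from the count table by their Ensembl identifiers. The list was chosen by a measured value, since Rprm was selected on the difference between Sarm1-/- and WT retinas in its response to IL1A+TNF, and the others as p53 targets. That difference, and the comparisons that set its PBS or IL1A+TNF retinas against another group, are therefore given for Rprm as a description with no test, and counts of genes called are over the other 9.

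p53, the product of Trp53, is a transcription factor that is held at low levels by the ubiquitin ligase Mdm2 and accumulates when cells sense DNA damage or other stress. It then switches on genes that stop the cell cycle, repair DNA or drive apoptosis, together with genes such as Mdm2 that shut the response down. It is best known for its part in the arrest or death of damaged cells, neurons included. Rprm encodes Reprimo, a small membrane-associated glycoprotein first described as a p53-induced mediator of cell cycle arrest at the G2 phase.

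Retinas came from C57BL/6J (WT) mice and from mice deficient in Sarm1, a gene that promotes axon degeneration. Eyes of WT mice were injected into the vitreous with PBS, IL1A, TNF or both cytokines together (IL1A+TNF), and eyes of Sarm1-/- mice with PBS or IL1A+TNF. Mice were 2 to 6 months old by the study's methods and 2 to 4 months old by its design text. Libraries came from 64 mice and from whole retinas, 86 in batch 1 and 23 in batch 2, of which 54 were from females and 55 from males. The cytokine comparison 2 days after injection used WT retinas of batch 1, of which 31 received PBS, 8 received TNF, 9 received IL1A and 10 received IL1A+TNF. Later WT retinas of the same batch received PBS (7, from 6 mice) or TNF (6) and were taken at 14 days, or received PBS (6) or TNF (9) and were taken at 35 days. Batch 2, taken at 2 days, held 5 WT PBS, 6 WT IL1A+TNF, 6 Sarm1-/- PBS and 6 Sarm1-/- IL1A+TNF retinas. Comparisons of genotypes, and of treatments within Sarm1-/- retinas, were fitted on all 81 day 2 retinas of both batches. That fit had a term for batch, and results of batch 2 alone are named as such. In 44 mice 1 eye received cytokine and the fellow eye PBS, so most PBS retinas come from animals whose other eye was treated. All Sarm1-/- retinas were in batch 2, and the knockout is carried in every cell of the animal and not in 1 retinal cell type alone.

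Total counts per retina ran from 30014757 to 79064488 (median 39374202), and levels are given as CPM, the count of a gene relative to that total. Sarm1 itself lay between 28.8 and 53.2 CPM in the 12 Sarm1-/- retinas and between 77.5 and 135 CPM in the 97 WT retinas, so the genotypes did not overlap but the deficient retinas still had reads on the gene. Markers of retinal neurons, the retinal ganglion cells (RGCs) included, were detected in every retina, and markers of neutrophils, monocytes, T cells and lens were at 0 in some. The IL1A+TNF eyes of 2 female Sarm1-/- mice (61924 and 61926) stood apart from all other batch 2 retinas. Of 15232 genes, both were below all other 21 retinas of the batch at 21.53% and above them at 18%. Results of Sarm1-/- IL1A+TNF retinas are given with and without these 2 eyes, an exclusion chosen after seeing the data.

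A gene is called here when its adjusted p (limma, Benjamini-Hochberg over all genes that passed a filter on low counts) was under 0.05, and fold changes are after scaling of the libraries to each other. SE is the standard error of a log2 difference and SD the spread over retinas.

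The bases before the transcription start are shown for 4 members because p53 is known to act through response elements built of paired 10-base half-sites. Cdkn1a and Eda2r are the members with the largest rises tested below, Mdm2 is a classical target that was not called in WT retinas, and Rprm is the gene the list was built around. Of the 10 members, 8 had an entry in the RefSeq promoter table (GRCm38.p6), and Zmat3 and Trp53inp1 had none. Each sequence gives the 250 bases before the start in the direction of transcription, with every exact match to the p53 half-site (on either strand, since the site is its own reverse complement) in capitals. The regions are chr2:54085553-54085802 on the minus strand for Rprm, chr17:29090729-29090978 on the plus strand for Cdkn1a, chrX:97377210-97377459 on the minus strand for Eda2r and chr10:117710759-117711008 on the minus strand for Mdm2.
Rprm: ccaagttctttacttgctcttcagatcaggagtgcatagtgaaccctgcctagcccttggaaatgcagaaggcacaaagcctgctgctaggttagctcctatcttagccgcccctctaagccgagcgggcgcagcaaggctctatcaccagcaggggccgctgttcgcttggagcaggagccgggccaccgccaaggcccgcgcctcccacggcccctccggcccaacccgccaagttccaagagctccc
Cdkn1a: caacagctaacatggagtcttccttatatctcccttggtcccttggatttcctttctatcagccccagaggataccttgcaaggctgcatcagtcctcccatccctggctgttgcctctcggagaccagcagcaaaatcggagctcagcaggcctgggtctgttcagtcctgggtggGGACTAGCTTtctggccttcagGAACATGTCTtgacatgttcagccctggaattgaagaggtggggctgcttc
Eda2r: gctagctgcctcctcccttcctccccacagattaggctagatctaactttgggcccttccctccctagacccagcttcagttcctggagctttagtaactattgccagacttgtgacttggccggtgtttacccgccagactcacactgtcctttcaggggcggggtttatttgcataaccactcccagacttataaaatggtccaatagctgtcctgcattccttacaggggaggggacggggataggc
Mdm2: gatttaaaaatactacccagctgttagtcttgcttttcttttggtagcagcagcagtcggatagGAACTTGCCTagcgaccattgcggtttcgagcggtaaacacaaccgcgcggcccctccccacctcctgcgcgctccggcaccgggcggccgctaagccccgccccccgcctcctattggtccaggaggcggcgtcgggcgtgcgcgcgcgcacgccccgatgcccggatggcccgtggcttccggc
Cdkn1a held 2 half-sites, at 73 to 64 and at 51 to 42 bases before the start, and Mdm2 held 1, at 186 to 177 bases before it. The second promoter listed for Cdkn1a (chr17:29093519-29093768, plus strand) held 0. Of the members not shown, Ccng1, Trp53 and the second promoter of Sesn1 held 1 half-site each, and Phlda3 held none. Among all 32851 promoters in the table, 7.13% held a half-site and 0.259% held 2 or more. A match is only a string of letters, and whether p53 binds it was not measured. The windows, with or without a match, do not cover elements further away or deeper in the gene.

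In WT retinas that received PBS and were taken at day 2, the members differed widely in level. Per kb of exon, Ccng1 (cyclin G1, a p53-induced cyclin that acts with Mdm2) was highest at 38.9 CPM, followed by Sesn1 at 17.8, Mdm2 at 14.4, Trp53inp1 at 9.29, Trp53 at 6.25 and Zmat3 at 4.12 CPM per kb. Phlda3 at 2.88 and Rprm at 2.74 CPM per kb differed by less than the SD of either across the 31 retinas. Cdkn1a was at 1.07 and Eda2r at 0.0399 CPM per kb, and Eda2r had as few as 1 count in a retina.

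Rprm (ENSMUSG00000075334, chr2:54084093-54085552, minus strand, GRCm38) was 3.99 ± 0.679 CPM (SD, n = 31) in WT PBS retinas at day 2, from 2.38 to 5.85 with a median of 3.93. After TNF it was 3.09 at the lowest, 3.94 at the median and 5.37 CPM at the highest over 8 retinas, inside the PBS range. After IL1A the 9 retinas ran from 4.59 to 6.90 CPM with a median of 5.40, and every one was above the PBS mean although the groups overlapped. In whole retina, fewer cells of a type and less RNA per cell cannot be told apart. Rprm was 1.35-fold higher after IL1A than after PBS (log2 fold change 0.43, SE 0.088), a value given with no test because the PBS retinas also entered the difference that Rprm was chosen for. In 5 of 7 mice the IL1A eye was above its PBS fellow eye, and with mouse as a fixed factor the log2 fold change was 0.18. For TNF the difference was 0.0014 on the log2 scale (SE 0.10), also given with no test.

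The IL1A+TNF groups had the highest median Rprm levels of the WT groups, with IL1A next. In batch 1 the 10 retinas ran from 3.86 to 7.71 CPM with a median of 6.49, and 9 of 10 were above the PBS mean. The exception, mouse 60780, also had the lowest Cdkn1a (5.45 CPM) and Eda2r (0.439 CPM) of its group and the highest sums of rod (41090 CPM) and RGC markers (731.5 CPM). The log2 difference from PBS was 0.62 (SE 0.081), and 7 of 8 IL1A+TNF eyes were above their PBS fellow eye. In batch 2 the 6 WT IL1A+TNF retinas had 3.37, 5.54, 5.89, 6.00, 6.09 and 7.03 CPM, against 2.03, 3.38, 3.44, 3.44 and 4.87 CPM in the 5 WT PBS retinas. All but the lowest lay above the whole PBS group, and the log2 difference was 0.68 (SE 0.42). IL1A+TNF and IL1A retinas, which share no mouse, differed by 0.19 (SE 0.10) on the log2 scale.

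In Sarm1-/- retinas Rprm spread widely after IL1A+TNF. The 6 PBS retinas had 3.35, 3.90, 3.96, 4.11, 4.33 and 4.89 CPM, a range that overlapped that of the WT PBS retinas. The 6 IL1A+TNF retinas had 0.369, 0.737, 2.84, 2.98, 4.61 and 6.23 CPM, and in 2 of 6 mice the IL1A+TNF eye was above its PBS fellow eye. The lowest 2 values, from 18 and 39 counts, belong to the eyes of mice 61926 and 61924 and were below all other 107 retinas, and the PBS fellow eyes of these mice were at 4.33 and 3.96 CPM. The remaining 4 retinas straddled the Sarm1-/- PBS group, with a mean of 4.16 ± 1.59 CPM (SD, n = 4) against 4.09 ± 0.511 CPM (SD, n = 6).

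**Figure D1:**
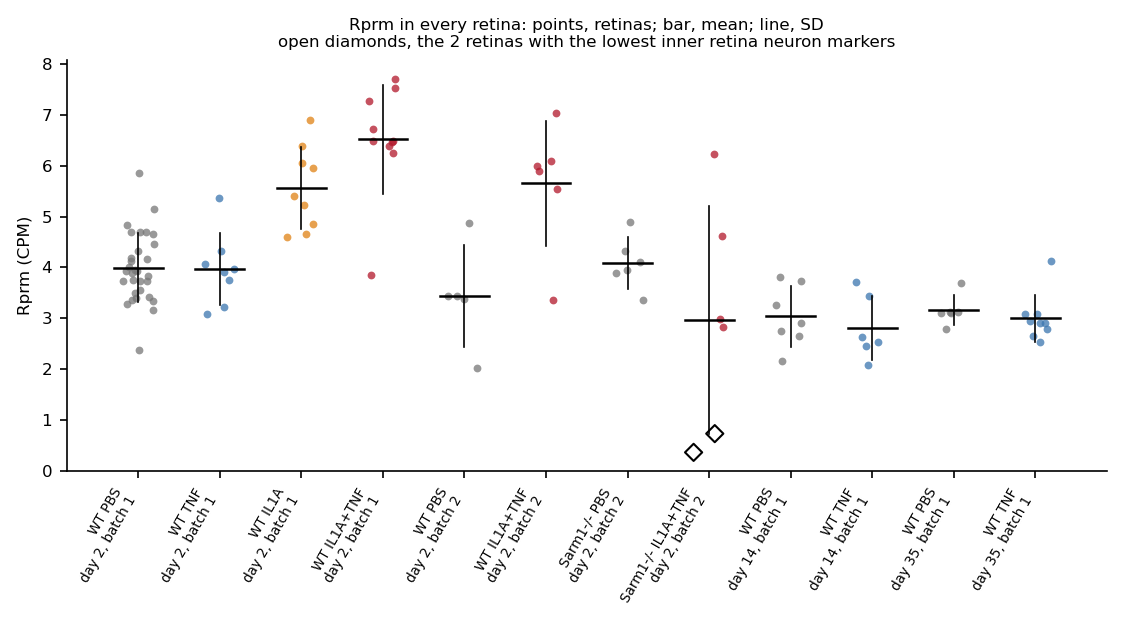
Rprm in every retina, in CPM, for the 12 groups of genotype, injection, day and batch, with 1 point per retina, a bar at the group mean and a line of 1 SD to either side. Open diamonds mark the 2 Sarm1-/- IL1A+TNF eyes that stood apart, at 0.369 and 0.737 CPM, below every other retina, while WT IL1A+TNF retinas of batch 1 reach 7.71 CPM.

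The difference between genotypes in the response of Rprm, which is the value it was chosen for, was -1.65 on the log2 scale (SE 0.27) with both batches and -1.60 (SE 0.61) in batch 2 alone. Without the 2 eyes that stood apart it was -0.75 (SE 0.19). Leaving out 1 mouse at a time gave values from -1.955 without mouse 61564 to -1.205 without mouse 61926. The response of Sarm1-/- retinas to IL1A+TNF was -1.002 (SE 0.25) over all 6 mice and -0.12 (SE 0.17) without the 2 eyes, against 0.65 (SE 0.12) in WT retinas of both batches. Between genotypes, Sarm1-/- IL1A+TNF retinas differed from WT IL1A+TNF retinas by -1.37 (SE 0.24), and by -0.47 (SE 0.17) without the 2 eyes. PBS retinas of the genotypes differed by 0.29 (SE 0.21).

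The other 9 members lay between -0.074 and 0.57. The same difference between genotypes was 0.57 (SE 0.38) for Cdkn1a, 0.16 (SE 0.065) for Mdm2, 0.16 (SE 0.12) for Trp53, 0.10 (SE 0.20) for Phlda3 and 0.089 (SE 0.59) for Eda2r, and ran from -0.074 to 0.020 for Zmat3, Trp53inp1, Sesn1 and Ccng1. Without the 2 eyes Cdkn1a was at -0.33 (SE 0.25), Eda2r at -0.85 (SE 0.52), Phlda3 at -0.24 (SE 0.18) and Trp53 at -0.094 (SE 0.10), so these signs changed without the 2 eyes. In batch 2 alone, with both eyes kept, Cdkn1a was at 0.53 (SE 0.74), Eda2r at 0.31 (SE 0.91) and Phlda3 at 0.13 (SE 0.32). Trp53 was then at -0.0098 (SE 0.19), so its sign also changed with the batches used. These differences are values only and were not tested.

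Cdkn1a, which encodes the cell cycle inhibitor p21, the receptor gene Eda2r and the Akt repressor gene Phlda3 rose after IL1A+TNF, by 1.90-fold to 5.26-fold, and the other 6 members apart from Rprm differed from PBS retinas by 0.21 or less on the log2 scale. Of the 9 members other than Rprm, 6 were called in WT IL1A+TNF against PBS retinas of batch 1, 5 higher and 1 lower, against a background of 50.4% of 19548 genes (24.9% higher, 25.5% lower), so a call by itself was common. The median log2 fold change of the 9 was 0.090, beside -0.023 over all genes. The leading members differed from the others in the size of the change.

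Cdkn1a (ENSMUSG00000023067, chr17:29090976-29100727, plus strand) encodes p21, which binds cyclin-dependent kinases and is the best known p53 target of cell cycle arrest. Its level in the 31 WT PBS retinas ran from 1.39 to 7.68 CPM with a median of 3.85, and in the 10 IL1A+TNF retinas from 5.45 to 16.7 CPM with a median of 8.89. All 10 retinas were above the PBS mean and all 8 with a PBS fellow eye were above it, although the ranges overlapped between 5.45 and 7.68 CPM. Cdkn1a rose 2.24-fold (log2 fold change 1.16, SE 0.13, adjusted p = 8.5e-11). An unnamed transcript (AC167363.2) overlaps Cdkn1a on the opposite strand, so a share of its reads is uncertain.

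Eda2r (ENSMUSG00000034457, chrX:97333840-97377216, minus strand) encodes a member of the TNF receptor superfamily that binds ectodysplasin A2 and is induced by p53. From 0.0301 to 0.762 CPM (median 0.144) in PBS retinas, it went to 0.439 to 2.18 CPM (median 1.02) in IL1A+TNF retinas, the largest rise among the 9 at 5.26-fold (log2 fold change 2.39, SE 0.26, adjusted p = 2.0e-11). These levels came from 1 to 27 counts per PBS retina and 19 to 88 counts per IL1A+TNF retina, so the fold is less precise than that of the other members. Its ligand gene Eda, at 1.502 CPM against 1.67 in PBS retinas, did not pass the test (log2 fold change -0.25, SE 0.12, adjusted p = 0.091).

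Phlda3 (ENSMUSG00000041801, chr1:135766119-135769136, plus strand) encodes a pleckstrin homology domain protein that competes with Akt for membrane lipids and so represses Akt. PBS retinas ran from 2.90 to 8.39 CPM with a median of 4.05, and IL1A+TNF retinas from 6.95 to 12.55 CPM with a median of 8.81. The rise was 1.90-fold (log2 fold change 0.93, SE 0.094, adjusted p = 1.7e-12), with 10 of 10 retinas above the PBS mean and 8 of 8 above the fellow eye.

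**Figure D2:**
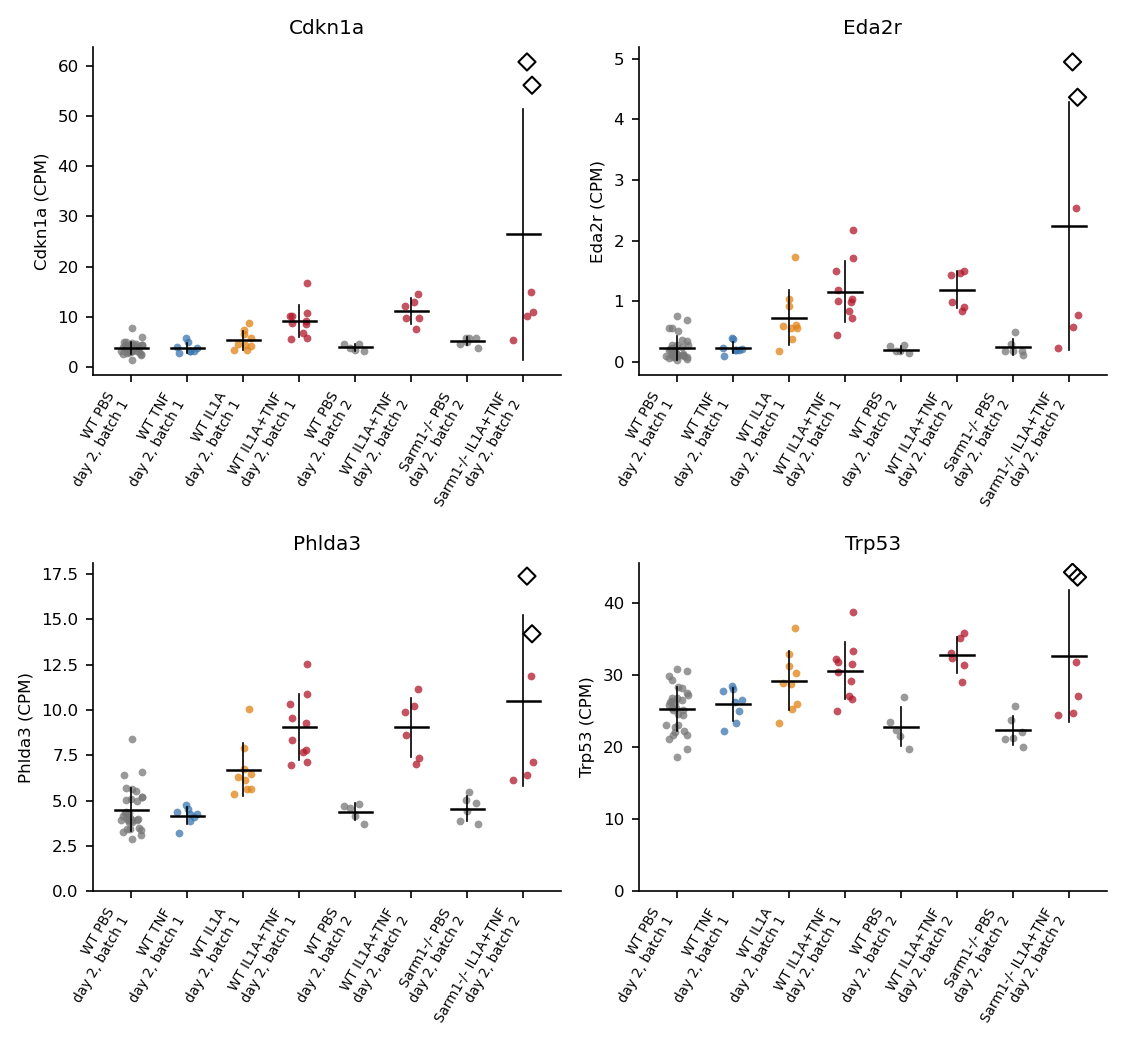
Cdkn1a, Eda2r, Phlda3 and Trp53 in CPM in the retinas taken at day 2, by genotype, injection and batch, with 1 point per retina, a bar at the mean and a line of 1 SD to either side. In each panel the mean of an IL1A+TNF group is above that of the PBS group of its genotype and batch. Single retinas of these groups overlap in batch 1 and, except for Phlda3, in Sarm1-/- mice. The 2 Sarm1-/- eyes drawn as open diamonds are the highest Cdkn1a values, at 56.2 and 60.8 CPM.

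Trp53 itself (ENSMUSG00000059552, chr11:69580359-69591873, plus strand) rose less. PBS retinas ran from 18.6 to 30.9 CPM (median 25.5) and IL1A+TNF retinas from 25.05 to 38.7 CPM (median 30.98), a 1.15-fold rise (log2 fold change 0.21, SE 0.054, adjusted p = 0.0012) seen in 8 of 8 mice. A processed pseudogene of Trp53 exists, so its counts may be split. Mdm2 (ENSMUSG00000020184), the inhibitor of p53 and itself a p53 target, was 73.4 ± 5.52 CPM (SD, n = 31) after PBS and 80.2 ± 6.15 CPM (SD, n = 10) after IL1A+TNF. That difference did not pass the test (log2 fold change 0.050, 95% interval -0.014 to 0.11, adjusted p = 0.20), so a rise of Mdm2 of the size seen for Cdkn1a lies far outside its interval.

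The remaining members had small differences. Trp53inp1, a stress-induced nuclear protein that promotes p53 activity, was called at a log2 fold change of 0.090 (SE 0.036, adjusted p = 0.032), but the call was lost with mouse as a fixed factor (adjusted p = 0.28) and without any 1 of mice 59734, 60212, 60215 and 60782 (adjusted p = 0.065, 0.057, 0.070 and 0.076). Sesn1, a sestrin that restrains mTORC1 signaling, averaged 67.3 ± 5.49 CPM after IL1A+TNF (SD, n = 10) and 70.9 ± 3.15 CPM after PBS (SD, n = 31), and fell by 0.15 on the log2 scale (SE 0.033, adjusted p = 0.00019), a call also lost with mouse as a fixed factor (adjusted p = 0.10). A second transcript, 9930024M15Rik, overlaps Sesn1 on the same strand, so its reads are uncertain. Ccng1 had a log2 fold change of 0.088 (SE 0.041, adjusted p = 0.069), and it passed the test when both batches were fitted together (0.10, SE 0.036, adjusted p = 0.013, where 54.8% of genes were called and 27.8% higher). Zmat3, a zinc finger RNA-binding protein, was at 0.012 (95% interval -0.064 to 0.089, adjusted p = 0.81).

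Markers of other cell types moved in the same retinas. In WT IL1A+TNF against PBS retinas, 8 of 9 RGC markers, 7 of 7 amacrine, 6 of 7 bipolar, 6 of 7 rod and 6 of 6 cone markers were called lower, and 6 of 6 neutrophil, 6 of 6 monocyte and macrophage and 5 of 7 microglia markers were called higher. Of the microglia markers, 1 was called lower. Horizontal cell markers (1 higher and 2 lower of 4) and Müller glia markers (2 higher and 2 lower of 6) went both ways. The summed RGC markers ran from 599 to 731.5 CPM after IL1A+TNF and from 651 to 887 CPM after PBS, and the summed neutrophil markers from 194 to 1112 CPM and from 17.98 to 175 CPM. The part of these shifts in the members' changes was not tested.

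After IL1A alone the same leading genes rose, by less. IL1A and IL1A+TNF were compared with the same PBS retinas, so their values are given side by side and not as independent results. Of the 9 members other than Rprm, 4 were called after IL1A, all higher, against 21.4% of genes called (12% higher, 9.45% lower): Eda2r (log2 fold change 1.65, SE 0.295, adjusted p = 1.5e-05), Phlda3 (0.55, SE 0.11, adjusted p = 5.8e-05), Cdkn1a (0.45, SE 0.16, adjusted p = 0.031) and Trp53 (0.16, SE 0.057, adjusted p = 0.034). Cdkn1a ran from 3.29 to 8.68 CPM with a median of 4.49 in the 9 IL1A retinas, overlapping the PBS range, and 4 of 7 IL1A eyes were above their fellow eye. Its call was lost under 4 of the alternatives (no filter, edgeR, no sex term and mouse as a fixed factor, with adjusted p from 0.051 to 0.27) and without mouse 60216, 60217, 60586 or 60637 (adjusted p = 0.095, 0.10, 0.056 and 0.14). The call of Trp53 was lost with mouse as a fixed factor (adjusted p = 0.17) and without mouse 60213, 60216, 60217, 60227, 60228 or 60637 (adjusted p = 0.051, 0.11, 0.073, 0.086, 0.074 and 0.16). Eda2r and Phlda3 passed under each of these settings and without any 1 cytokine-injected mouse, and the count of 4 became 2 with mouse as a fixed factor and without mouse 60216, 60217 or 60637. In these retinas 6 of 9 RGC markers were called lower and 6 of 6 neutrophil markers higher, and their part was not tested.

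Adding TNF to IL1A raised 2 members further. Between IL1A+TNF and IL1A retinas, where 10.1% of genes were called (5.39% higher, 4.68% lower), Cdkn1a was 1.64-fold higher after IL1A+TNF (log2 fold change 0.71, SE 0.18, adjusted p = 0.0051), with 10 of 10 retinas above the IL1A mean. Phlda3 was 1.30-fold higher (0.38, SE 0.12, adjusted p = 0.029), a call lost with edgeR (adjusted p = 0.054) and without mouse 59734, 60212, 60214, 60228 or 60588 (adjusted p from 0.0505 to 0.0654). Eda2r was at 0.74 (SE 0.30, adjusted p = 0.11). The count of 2 became 1 without any of the mice named for Phlda3, 4 without mouse 60780 and 5 without mouse 60637.

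TNF alone left no member called, at day 2 or later. At day 2, where 0.655% of genes were called by limma, 0 of 9 members passed, and 0 had an unadjusted p under 0.05, as was also the case with edgeR and DESeq2. Cdkn1a was 3.803 ± 1.03 CPM (SD, n = 8) after TNF against 3.81 ± 1.18 CPM (SD, n = 31) after PBS, a log2 difference of 0.049 with a 95% interval from -0.31 to 0.41. The intervals of Mdm2, Ccng1, Trp53inp1, Zmat3, Sesn1 and Trp53 lay between -0.070 and 0.18, and that of Eda2r, from -0.45 to 1.09, was wider. At day 14 limma called 0 of 18563 genes (0.0%), with 826 at an unadjusted p under 0.05, and edgeR and DESeq2 called 0 as well. At day 35 it called 0 of 18026 genes (0.0%), with 888 at an unadjusted p under 0.05, and edgeR and DESeq2 also called 0. In both, 8 of the 9 members passed the filter on low counts and 0 of these 8 had an unadjusted p under 0.05 by limma, edgeR or DESeq2, and Eda2r, at most 0.616 CPM, did not pass it. Rprm differed by -0.067 (95% interval -0.37 to 0.24) at day 14 and by -0.077 (95% interval -0.27 to 0.12) at day 35. Its level was higher in the TNF eye than in the PBS fellow eye in 0 of 4 mice at day 14 and in 1 of 6 at day 35. With mouse as a fixed factor the differences were -0.12 (adjusted p = 0.75) and -0.048 (adjusted p = 0.98).

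**Figure D3:**
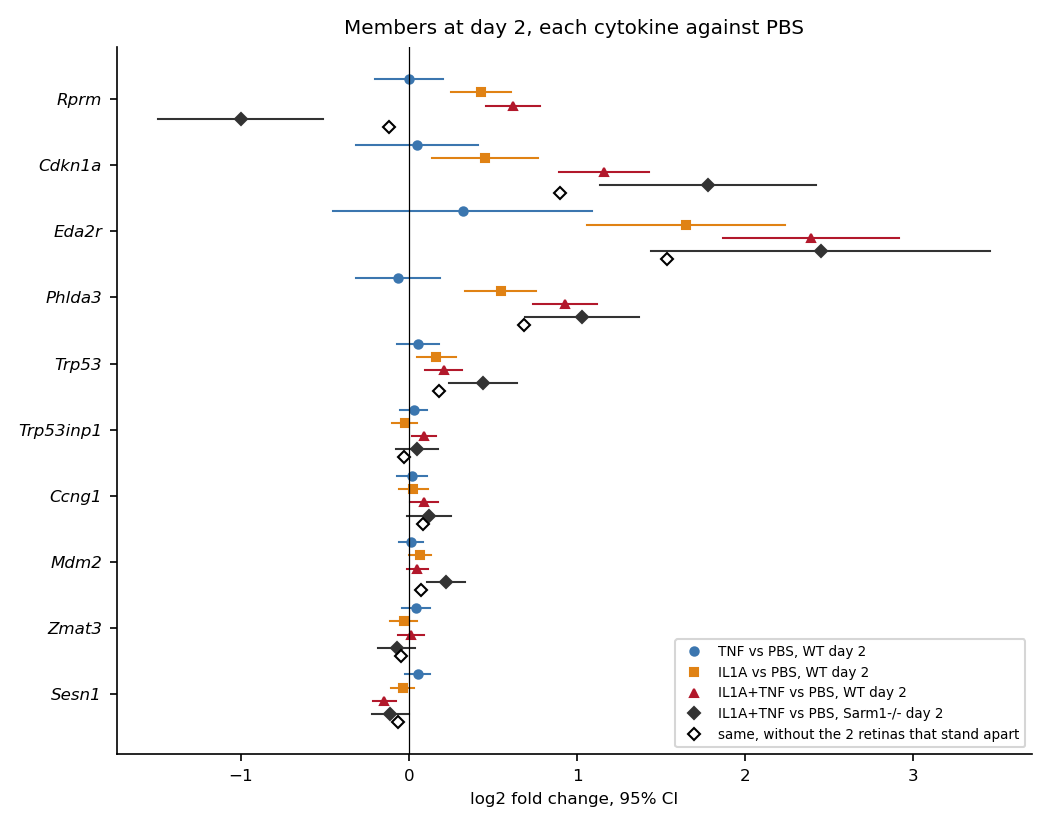
Log2 fold changes of the 10 genes against PBS at day 2 after TNF, IL1A and IL1A+TNF in WT retinas and after IL1A+TNF in Sarm1-/- retinas, with 95% intervals. Those of Rprm are a description and not a test. Open diamonds give the Sarm1-/- values without the 2 eyes that stood apart, which move Rprm from -1.002 to -0.12, while Eda2r, Cdkn1a and Phlda3 stay above 0.

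PBS retinas of different days differed in some members. Between days 14 and 2, where 19.2% of genes were called, 3 of the 9 members were called: Cdkn1a fell by 0.61 on the log2 scale (SE 0.21, adjusted p = 0.033), Trp53 by 0.25 (SE 0.065, adjusted p = 0.0045), and Sesn1 rose by 0.0965 (SE 0.032, adjusted p = 0.030). Rprm, as a description, differed by -0.38 (SE 0.11), from a median of 3.93 CPM at day 2 to 2.91 CPM at day 14, where the 7 retinas ran from 2.16 to 3.82 CPM. The day 14 retinas include both eyes of mouse 59710, which the fit treats as separate. The calls of Cdkn1a and Sesn1 were lost without this mouse (adjusted p = 0.107 and 0.310), and also without mouse 59712 (adjusted p = 0.125 and 0.061) or 59738 (adjusted p = 0.071 and 0.060), each of which leaves Trp53 as the 1 member called. Between days 35 and 2, where 32.8% of genes were called (15.4% higher), 4 members were called: Trp53 fell by 0.27 (SE 0.069, adjusted p = 0.0021) and Phlda3 by 0.40 (SE 0.16, adjusted p = 0.044), and Sesn1 rose by 0.16 (SE 0.034, adjusted p = 0.00042) and Zmat3 by 0.15 (SE 0.048, adjusted p = 0.010). The Phlda3 call was lost with no filter on low counts (adjusted p = 0.070) and without any 1 of 15 mice (adjusted p from 0.0504 to 0.145). Rprm, with no test, was at -0.26 (SE 0.11). Mice of different days were different animals, and day and the handling of each set of animals cannot be told apart.

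No member was called between male and female WT retinas at day 2. With 0.363% of genes called by limma, 0 of 9 members were called and 1, Trp53inp1, had an unadjusted p under 0.05 (log2 difference, male minus female, -0.092, SE 0.027, adjusted p = 0.14). edgeR and DESeq2 gave the same counts. Without mouse 60584, 1 member was called. Rprm differed by -0.036 (95% interval -0.17 to 0.095). X-linked Eda2r differed by -0.029 with an interval from -0.47 to 0.41.

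In batch 2 the WT response was measured again in 6 IL1A+TNF and 5 PBS retinas. Of the 9 members, 3 were called, all higher, against 13.2% of genes called higher: Phlda3 (log2 fold change 0.91, SE 0.23, adjusted p = 0.0080), Eda2r (2.33, SE 0.69, adjusted p = 0.020) and Trp53 (0.45, SE 0.13, adjusted p = 0.022). Cdkn1a, with 7.45, 9.78, 9.81, 12.15, 12.99 and 14.6 CPM after IL1A+TNF against 3.14, 3.31, 3.78, 4.45 and 4.55 CPM after PBS, did not overlap between the groups, yet its log2 fold change of 1.31 (SE 0.57) did not pass the test (adjusted p = 0.10). In this fit the spread was shared with the Sarm1-/- retinas, and the part of this in the Cdkn1a result was not tested. edgeR and DESeq2 each called 4 members, beside 4505 and 5209 of 19910 genes called, against 4117 by limma. The calls of Eda2r and Trp53 were lost with mouse as a fixed factor (adjusted p = 0.067 and 0.084) and without mouse 61720 (adjusted p = 0.087 and 0.060) or 61721 (adjusted p = 0.062 and 0.079), and that of Trp53 also without mouse 61719 (adjusted p = 0.0516), which leaves 1 member called without mouse 61720 or 61721. The WT responses of the batches were compared directly as well, and limma called 0 of 20328 genes (0.0%), with 523 at an unadjusted p under 0.05, edgeR called 0 and DESeq2 1, and 0 of the 9 members were called, with 1 (Trp53, difference 0.25, SE 0.12) under 0.05 unadjusted.

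Members also rose after IL1A+TNF in Sarm1-/- retinas. With all 6 mice, 5 of the 9 members were called, all higher, against 43.5% of 20154 genes called (21.3% higher, 22.2% lower): Eda2r (log2 fold change 2.45, SE 0.51, adjusted p = 6.1e-05), Cdkn1a (1.78, SE 0.32, adjusted p = 9.2e-06), Phlda3 (1.03, SE 0.17, adjusted p = 2.4e-06), Trp53 (0.44, SE 0.10, adjusted p = 0.00026) and Mdm2 (0.22, SE 0.057, adjusted p = 0.00097). Without the 2 eyes that stood apart, where 13% of genes were called (6.21% higher, 6.76% lower), 3 were called: Cdkn1a (0.90, SE 0.22, adjusted p = 0.0035), Phlda3 (0.68, SE 0.16, adjusted p = 0.0022) and Eda2r (1.54, SE 0.45, adjusted p = 0.016). Trp53 then had an adjusted p of 0.19 and Mdm2 of 0.41, and the Mdm2 call was also lost without mouse 61926 alone (adjusted p = 0.052).

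Cdkn1a was 5.41, 10.1, 11.02, 14.8, 56.2 and 60.8 CPM in the Sarm1-/- IL1A+TNF eyes and 3.83 to 5.83 CPM in the Sarm1-/- PBS eyes. Phlda3 was 6.12, 6.38, 7.13, 11.9, 14.2 and 17.4 CPM after IL1A+TNF, all above the highest PBS value of 5.49 CPM. Eda2r was 0.226, 0.578, 0.777, 2.53, 4.37 and 4.95 CPM, overlapping the PBS range of 0.123 to 0.499 CPM in 1 eye. In each of these genes the highest 2 values were those of mice 61924 and 61926. The third highest was that of mouse 61765, whose RGC marker sum of 383 CPM was the lowest of the other 4. Mice 61924, 61926 and 61765 were the 3 females of this group, and its 3 males had the lower values in each of these genes. Without the 2 eyes, mouse 61765 was the only female left. Sex cannot be told apart here from what set the 2 eyes apart, and its part was not tested. The eyes of mice 61924 and 61926 were also above all other 107 retinas in 5 members. Over all genes the share above all 107 was not computed. Against the other 21 batch 2 retinas alone, which is an easier mark, both eyes were above at 18% of 15232 genes. The count of 5 therefore has no matching share over all genes.

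**Figure D4:**
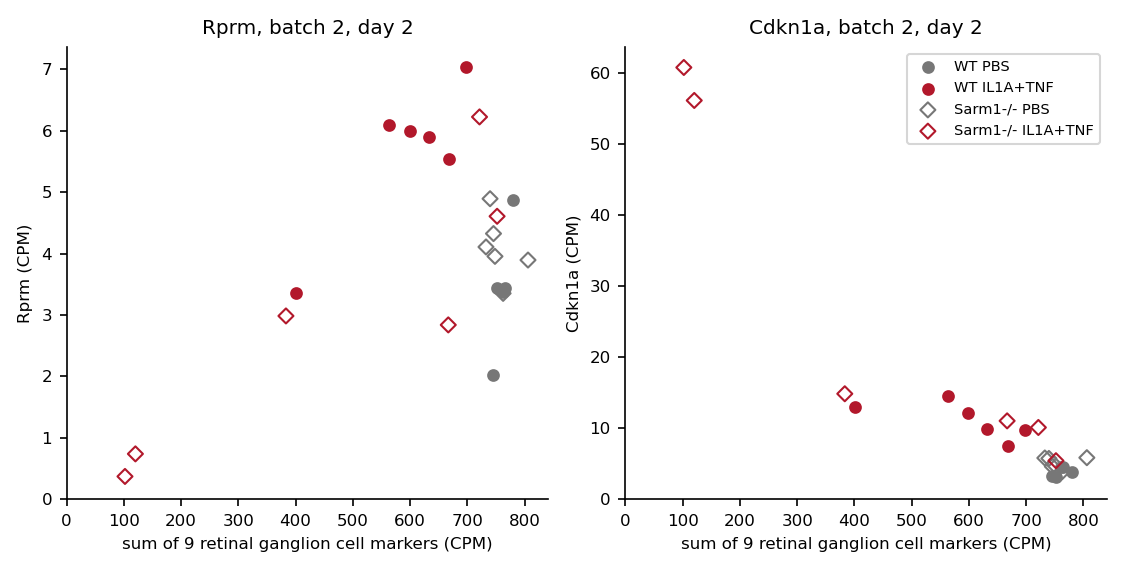
Summed CPM of 9 RGC markers on the x axis against Rprm and Cdkn1a in CPM, with 1 point per batch 2 retina, red after IL1A+TNF and grey after PBS, with circles for WT and open diamonds for Sarm1-/- retinas. The 2 Sarm1-/- eyes that stood apart lie at 102 and 120 CPM of RGC markers with the lowest Rprm and the highest Cdkn1a, and the other 21 retinas lie between 383 and 806 CPM.

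Cell type markers moved with these values. In the eyes of mice 61924 and 61926, 9 of 9 RGC, 7 of 7 amacrine, 6 of 7 bipolar, 4 of 4 horizontal and 5 of 6 Müller glia markers were below every other batch 2 retina. So were 3 of 5 endothelial, 2 of 6 cone, 1 of 7 rod and 1 of 7 microglia markers. Above every other were 2 of 6 neutrophil and 1 of 6 monocyte and macrophage markers. Markers of T cells, pigment epithelium and lens were neither. Over all 15232 genes 21.53% were below and 18% above. Their RGC sums were 102 and 120 CPM, against 383 to 752 CPM in the other 4 Sarm1-/- IL1A+TNF eyes, 733 to 806 CPM in Sarm1-/- PBS eyes and 400 to 699 CPM in WT IL1A+TNF eyes of batch 2. Their neutrophil sums were 1175 and 1263 CPM, against 144 to 514 CPM in the other 4 and 288 to 1097 CPM in the WT IL1A+TNF eyes. The WT IL1A+TNF eye with the lowest RGC sum of its batch 2 group, mouse 61721 at 400 CPM, also had the lowest Rprm of its group, at 3.37 CPM. In batch 1 it was the other way, as the lowest Rprm (mouse 60780, 3.86 CPM) went with the highest RGC sum, 731.5 CPM. Among the other 4 Sarm1-/- eyes, mouse 61765 had the lowest RGC sum and 2.98 CPM of Rprm. The lowest Rprm of these 4 was that of mouse 62221, at 2.84 CPM. The part of these markers' cells in the Rprm and Cdkn1a values was not tested.

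Between genotypes after IL1A+TNF, 2 of the 9 members were called, both higher in Sarm1-/- retinas, against 14.8% of genes (4.04% higher). This fit held the day 2 retinas of both batches. Cdkn1a was 1.785-fold higher in Sarm1-/- than in WT retinas (log2 difference 0.84, SE 0.27, adjusted p = 0.025) and Mdm2 1.13-fold higher (0.18, SE 0.052, adjusted p = 0.014). Neither call held without the 2 eyes, where 0.898% of genes were called and Cdkn1a was at -0.046 (SE 0.20, adjusted p = 0.94) and Mdm2 at 0.034 (SE 0.048, adjusted p = 0.80). Leaving out mouse 61924 or 61926 alone also ended both calls (adjusted p = 0.308 and 0.255 for Cdkn1a, 0.255 and 0.214 for Mdm2), as did batch 2 alone (adjusted p = 0.3055 and 0.234), and that of Cdkn1a was lost without WT mouse 61927 (adjusted p = 0.106) and with no sex term (adjusted p = 0.056). The loss was not particular to these members, since calls over all genes fell from 2988 to 271 without mouse 61924. In PBS retinas of the genotypes 0 of 9 members were called by limma, with 0 under 0.05 unadjusted, where 0.0397% of genes were called (0.00496% higher, 0.0347% lower). edgeR and DESeq2 also called 0 of 9, with 0 under 0.05 unadjusted. The intervals of that difference were -0.39 to 0.92 for Cdkn1a and -0.29 to 0.39 for Phlda3.

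Of 36 further targets, all tested, 20 were called higher, 5 lower and 11 not at all in WT IL1A+TNF against PBS retinas, beside 24.9% higher and 25.5% lower over all genes, and their median log2 fold change was 0.12 beside -0.023. Among those called, the largest rises were in Pmaip1, which encodes the BH3-only apoptosis protein Noxa (from 1.22 ± 0.44 CPM (SD, n = 31) to 5.975 ± 1.57 CPM (SD, n = 10), log2 fold change 2.19, SE 0.15, adjusted p = 8.1e-18), and Dram1, a lysosomal regulator of autophagy (1.74, SE 0.15, adjusted p = 1.4e-14). Among those called, falls were largest in the mTORC1 inhibitor Ddit4 (-0.56, SE 0.059, adjusted p = 7.9e-12) and the DNA damage binding gene Ddb2 (-0.22, SE 0.050, adjusted p = 0.00016). After IL1A 9 were higher and 3 lower, beside 12% and 9.45% of all genes. After IL1A+TNF in Sarm1-/- retinas 20 were higher and 5 lower (median 0.28), beside 21.3% and 22.2% of all genes, and without the 2 eyes that stood apart 7 were higher and 3 lower (median 0.12), beside 6.21% and 6.76%.

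**Figure D5:**
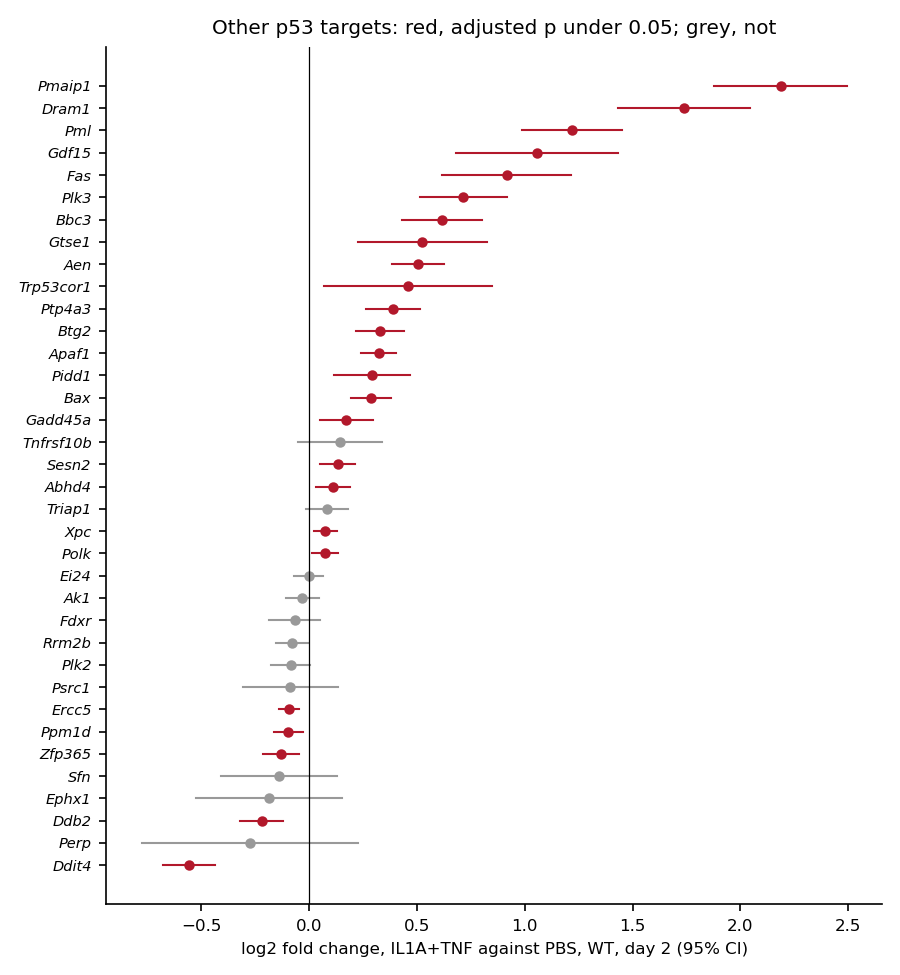
Log2 fold changes of 36 other p53 targets in WT IL1A+TNF against PBS retinas at day 2, with 95% intervals, ordered by value. They run from Ddit4 at -0.56 to Pmaip1 at 2.19, with 20 called higher and 5 called lower.

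Of 23 regulators 21 were tested, and 5 were higher, 3 lower and 13 not called, with a median of 0.0062 beside -0.023 over all genes. Over all genes 24.9% were higher and 25.5% lower. Daxx, a p53 and Mdm2 binding protein, rose by 0.98 (SE 0.084, adjusted p = 5.9e-15) and the checkpoint kinase Chek2 by 0.57 (SE 0.086, adjusted p = 1.2e-07), while the p53 relative Trp63 fell by 0.79 (SE 0.27, adjusted p = 0.011) and the p53 inhibitor Ppp1r13l by 0.32 (SE 0.059, adjusted p = 6.1e-06). Mdm4, the partner of Mdm2, was at -0.095 (SE 0.064, adjusted p = 0.22). In Sarm1-/- retinas 10 of the 22 regulators tested were higher and 2 lower, beside 21.3% and 22.2% of all genes, and without the 2 eyes 1 was higher and 0 lower, beside 6.21% and 6.76%.

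Paralogs of the members were counted as well. Rprml, the relative of Rprm, was 0.39 CPM after IL1A+TNF and 0.44 CPM after PBS in WT retinas (log2 fold change -0.22, SE 0.20, adjusted p = 0.38) and fell by 0.95 (SE 0.33, adjusted p = 0.015) in Sarm1-/- retinas, a call lost without the 2 eyes that stood apart (-0.19, SE 0.30, adjusted p = 0.74). Relatives of p21 were at 0.065 (Cdkn1b, adjusted p = 0.17) and -0.21 (Cdkn1c, adjusted p = 0.0099), where Cdkn1a rose by 1.16. Phlda1 rose by 0.35 (SE 0.083, adjusted p = 0.00034) and Trp53inp2 by 0.18 (SE 0.029, adjusted p = 4.7e-07), and Ccng2 fell by 0.38 (SE 0.065, adjusted p = 1.5e-06). Over the 13 of 16 paralogs and partners tested, 4 were higher, 4 lower and 5 not called, beside 24.9% higher and 25.5% lower over all genes, with a median of -0.095 beside -0.023.

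Genes of the G2 and M phases, the step at which Reprimo is known to act, were also counted. Of 16 tested, 6 were higher, 1 lower and 9 not called in WT IL1A+TNF retinas, beside 24.9% higher and 25.5% lower over all genes, with a median of 0.28 beside -0.023. Mki67, a proliferation marker, went from 6.68 ± 5.25 CPM (SD, n = 31) to 10.6 ± 3.03 CPM (SD, n = 10) (log2 fold change 0.85, SE 0.24, adjusted p = 0.0024), and the mitotic cyclin Ccnb1 rose by 0.82 (SE 0.27, adjusted p = 0.0090), while Ccna2 fell by 0.28 (SE 0.085, adjusted p = 0.0047). In Sarm1-/- retinas 1 was higher and 1 lower after IL1A+TNF, beside 21.3% and 22.2% of all genes, and neither call held without the 2 eyes.

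The genes most like Rprm changed with the samples used. Likeness was measured as Pearson's r of log2 CPM, with each retina centred on the average WT PBS retina of its batch and day, over 15134 genes and all retinas (86 of batch 1 and 23 of batch 2), which share injections, libraries and cell makeup, and is a description. The leading 5 were Ly6h (r = 0.854), Coch (0.853), Rasgrp1 (0.850), Syt11 (0.850) and Cd200 (0.847). Without the 2 eyes that stood apart these fell to r from 0.678 to 0.753, and the leading 5 became Ywhah (0.830), Extl2 (0.778), H3f3a (0.771), Htr3a (0.770) and Serinc3 (0.767). For Cdkn1a the leading 5 were Klf6 (0.917), Dnajb11 (0.912), Etf1 (0.906), Hspd1 (0.906) and Clptm1l (0.905), and these stayed between 0.852 and 0.881 over 107 retinas.

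The correlation of Rprm with the leading p53 targets turned on the same 2 eyes. Over all retinas r was -0.088 between Rprm and Cdkn1a, 0.083 between Rprm and Eda2r and 0.15 between Rprm and Phlda3. Over the 107 retinas without them r was 0.57, 0.55 and 0.67, in the same order. Cdkn1a, Eda2r and Phlda3 followed each other either way, with r from 0.80 to 0.84 over all and from 0.76 to 0.81 over 107 retinas, and Sesn1 ran against them (-0.31 to -0.39 and -0.22 to -0.29).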

How the data were processed

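Whole mouse retina RNA was sequenced, 1 library per retina. The authors aligned reads with STAR 2.7.9a to mm10 and counted them per gene with featureCounts (Subread 2.0.1), and deposited raw counts for 37315 genes (per the labels and methods; the annotation release and strand setting are not given in the sources used here). From these counts, CPM of the library total were computed, and comparisons were fitted in R 4.3.3 with limma 3.58.1: counts were scaled by TMM (edgeR 4.0.16) and filtered with filterByExpr (minimum count 10, total 15, proportion 0.7), then fitted with voom in 2 rounds with sex as a term and mouse as a random block (statmod 1.5.0), and batch as a term where both batches entered. Tests are two-sided, and p-values were adjusted over all genes fitted. Pairing comes from the mouse numbers in the labels, which tie the eyes of an animal together. The correlation within mice was 0.0515 at day 2, 0.275 at day 14 and 0.0784 at day 35 in batch 1, and -0.0758 in batch 2. PBS retinas of different days were fitted with no block, although 1 mouse gave both eyes at day 14.

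Alternatives were size factors of DESeq2, no filter, edgeR's quasi-likelihood test, DESeq2 1.42.0, no replicate block, mouse as a fixed factor (46 of 58 day 2 retinas, those of mice with both eyes), no sex term, batch 2 alone and leaving out in turn each cytokine-injected mouse and each mouse of batch 2. The exclusion of 2 retinas, and leaving out mice with PBS eyes alone in the comparison of days, were added after seeing the data. The scripts were checked on simulated counts. Total counts of 30014757 or more per retina limit precision most for Eda2r, with 1 to 27 counts in WT PBS retinas at day 2. The median over genes of the log2 ratio of mean CPM was 0.0469 for WT IL1A+TNF against PBS, so CPM ratios run slightly above fitted fold changes.

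The members, gene lists and markers were chosen with earlier results of these data known. Trp63, Trp73, Mdm4 and Sesn2 each stand in 2 lists, so they are counted in both. Named genes were all 10 members, Sarm1 as a check, up to 2 called genes with the largest rise and 2 with the largest fall in WT IL1A+TNF against PBS from each list, and the 5 genes most like Rprm and Cdkn1a. Mdm4, Eda, Rprml, Cdkn1b and Cdkn1c, and the genes most like Rprm without the 2 retinas, were named after their values were seen. Exonic lengths came from the GENCODE M21 annotation of GRCm38, the build called mm10 in the labels.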

Additional observations from a re-analysis of the deposited data

Results flagged for a closer look

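In 8 of 110 sets of 4 to 10 retinas (1 member in 1 group), the highest or lowest retina stood further from the others than Dixon's 95% limit allows, and chance gives about 1 in 20. For Rprm, the WT IL1A+TNF retina of mouse 60780 in batch 1 had 3.859 CPM, below the next at 6.242. At day 35 the WT PBS retina of mouse 59895 had 3.701 CPM of Rprm above the next at 3.13, and the WT TNF retina of mouse 59894 had 4.121 CPM above the next at 3.085. Cdkn1a was 16.67 CPM in the WT IL1A+TNF retina of mouse 60212, above the next at 10.74. Ccng1 was 113.9 CPM in the batch 2 WT PBS retina of mouse 61927, below the next at 132.7, and 113.3 CPM in the day 35 WT TNF retina of mouse 59730, below the next at 124.0. Trp53inp1 was 75.36 CPM in the WT IL1A retina of mouse 60637, above the next at 63.15. Zmat3 was 56.36 CPM in the batch 2 WT IL1A+TNF retina of mouse 61722, above the next at 50.05.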

How the results depend on the processing

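Of the values of counts and of the Rprm genotype difference recomputed under the alternatives, 519 stayed within 1.5 times the count or 1 SD and 27 moved. Of those for single called members, 227 kept direction and call, 68 kept direction and lost the call and 1 reversed. Without the 2 Sarm1-/- retinas that stood apart, 3 members were called in Sarm1-/- IL1A+TNF against PBS and 0 between genotypes after IL1A+TNF, where Cdkn1a reversed to -0.046 (adjusted p = 0.94), and the Rprm genotype difference was -0.75. Between genotypes after IL1A+TNF the count was 1 with no sex term and 0 in batch 2 alone, and edgeR called 1 member in IL1A+TNF against IL1A. With mouse as a fixed replicate block the count was 2 for IL1A against PBS and 1 for IL1A+TNF against PBS in batch 2. With no replicate block the counts were the same as with it in every comparison fitted with a block. The Rprm genotype difference was then -1.654. The correlation within mice was 0.0515 at day 2 in batch 1 and 0.00526 over both batches, so dropping the block could change little there.

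Leaving out in turn each cytokine-injected mouse and each mouse of batch 2 (and, between days, each mouse with PBS eyes alone) gave 5 to 8 members called for WT IL1A+TNF against PBS, 2 to 4 for IL1A, 0 for TNF at days 2, 14 and 35, 1 to 5 for IL1A+TNF against IL1A, 0 to 1 for sex, 4 to 6 for Sarm1-/- IL1A+TNF against PBS, 0 to 2 between genotypes after IL1A+TNF, 0 after PBS, 1 to 4 in WT retinas of batch 2, 0 for the difference between batches, 3 to 5 for day 35 against day 2 and 1 to 4 for day 14 against day 2, and -1.955 to -1.205 for the Rprm genotype difference. Mouse as a fixed factor keeps only mice with both eyes, so it rests on fewer retinas. The cause of the other shifts was not tested.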
